A study of Ovis aries with 6 samples.

Results

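The genes described here are those of mitosis and the G2/M transition, the step from the end of DNA replication into cell division. They were chosen by name: 40 symbols were listed, and 37 of the 26425 rows of the deposited gene table carry one of them. CDK1 is listed in the table under its former symbol CDC2 and was followed beside the 37 without being counted among them, and CCNB1 and KIF4A were not analysed here. All 37 had a mean of at least 1 FPKM (a read count divided by gene length and by the size of the library) over the 6 libraries and were tested.

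RNA was sequenced from sheep cells of the stromal vascular fraction of fat, the mixed fraction that holds fat cell precursors, and the labels give the cell type of all samples as adipocyte. The compared groups were 3 samples overexpressing MEOX2, a mesodermal homeobox transcription factor, and 3 control samples labelled NC. The prefix pHBLV stands before both groups' names in the table, and the sources used here give no animal, age, passage or time after the start of overexpression. Nothing says that the samples of a group came from separate cultures or animals, so each p-value below reflects only how far these libraries differ, and that spread may be technical.

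A dividing cell builds up cyclins that switch on the kinase CDK1. Active CDK1, with the Aurora and Polo kinases, drives chromosome condensation, spindle assembly and the attachment of kinetochores to microtubules. The anaphase-promoting complex then marks cyclins for destruction, sister chromatids part and cytokinesis divides the cell. Transcripts of most of these proteins are scarce in resting cells and build up late in the cycle, under MYBL2 (B-MYB), FOXM1 and the MuvB complex, so their levels in a culture follow how many cells are dividing. Cultured fat cell precursors divide, and terminally differentiated fat cells do not. In bulk RNA, fewer cells in G2 or mitosis and less of these transcripts per cell cannot be told apart.

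Libraries held 11772772 to 12230863 reads, recovered as whole numbers from the FPKM values. Coordinates below are those of the table, whose genome build is not stated. The MEOX2 gene (ENSOARG00000008280, chromosome 4, 24100798 to 24175729, minus strand) was measured at 153, 108 and 138 FPKM (MEOX2 samples 1, 2 and 3) and at 10.8, 10.1 and 9.03 FPKM (NC samples 1, 2 and 3), as the labels state, with a log2 change of 3.60 (limma adjusted p = 1.15e-05) and an exact two-sided permutation p of 0.1, the smallest that 3 against 3 samples allow. The first principal component (34% of the variance) separated all MEOX2 libraries from all NC libraries. The second (22.2%) had NC sample 3 at one end (21.2) and NC sample 2 at the other (-14.2). Of 13 stromal and adipogenic markers all averaged above 1 FPKM. Limma called 4 of them as lower (ADIPOQ, FABP4, PLIN1 and PPARG, the last listed as PPARG2), where it called 1.16% of all genes as lower. FABP4, a fatty acid carrier of fat cells, ranged from 68.4 to 86.1 FPKM with MEOX2 and from 205.4 to 254.5 FPKM in NC. Of the 13, 0 were called higher, where 198 of the 13121 genes tested were. At an unadjusted limma p under 0.05, 3 were higher, beside 929 of all genes tested. In 4 (PDGFRA, COL1A2, LUM and DCN) every MEOX2 library lay above every NC library, as in 1259 of all genes tested. The adipogenic markers LPL and CEBPA overlapped between groups, LPL at 36.3 to 44.5 FPKM with MEOX2 and 37.7 to 42.3 FPKM in NC. The part of these fat cell genes in the values below was not tested. The summed level of the 13, mostly collagen, was 22414 to 24852 FPKM with MEOX2 and 20580.0 to 21708 FPKM in NC. Of 10 leukocyte markers, 4 averaged at least 1 FPKM, CD74 was listed at 0 in all libraries and PTPRC at most at 0.0424 FPKM; their summed level, mostly CD14, was 122.5 to 134.8 FPKM with MEOX2 and 115.0 to 122.5 FPKM in NC. Endothelial markers summed to 1.90 to 3.40 and 1.71 to 3.18 FPKM over 6 genes, and epithelial and mesothelial markers to 1.93 to 3.26 and 2.10 to 2.87 FPKM over 6 genes, with EPCAM listed at 0 throughout.

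Mitosis and G2/M transcripts were detected at low to moderate levels in every library, and most stood slightly lower in the cells overexpressing MEOX2, none by enough to pass the test over all genes. Of the 37, 31 had a negative log2 change (83.8%), against 50.7% of the 13121 genes tested. Their median log2 change on the log2(FPKM + 1) scale was -0.17, beside -0.0027 over all genes tested. On that scale, which shrinks the change of low genes, no log2 change of the 37 reached 0.4 in either direction, and by limma voom the log2 change of CDC25C, the gene with the lowest mean level, was -0.51. The group means of the 8 genes with the smallest p were 15.8% to 22.9% lower with MEOX2. Limma called 0 of the 37 at an adjusted p of 0.05, where 2.67% of all genes were called in either direction and 1.16% as lower. Limma voom on the recovered reads also called 0, with 10 lower at an unadjusted p under 0.05. By limma at that level, 8 of the 37 (21.6%) were lower and 0 higher, against 6.35% of all genes lower and 929 of the 13121 higher. In 12 of the 37 (32.4%) every MEOX2 library lay below every NC library, as it did in 9.33% of all genes. The reverse held for 1 of the 37 and for 1259 of the 13121 genes tested. These transcripts are made together in the same dividing cells, so the 37 are not independent observations.

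The summed level of the 37 genes was 396.5, 427.3 and 421.8 FPKM (MEOX2 samples 1, 2 and 3) and 485.2, 450.4 and 490.96 FPKM (NC samples 1, 2 and 3), without overlap between the groups. The mean sum was 12.7% lower with MEOX2. This made 0.0572% to 0.0636% of all FPKM with MEOX2 and 0.0656% to 0.0744% in NC. Mean levels over the 6 libraries ran from 1.58 FPKM for CDC25C to 43.1 FPKM for UBE2C, with a median of 8.87 FPKM, where the median of all genes tested was 11.5 FPKM. In all, 13 of the 37 lay above that median. After UBE2C, the highest mean levels per length were those of ANLN (37.7 FPKM), BIRC5 (26.1), TOP2A (23.7) and HMMR (23.02), and the lowest after CDC25C were BUB1 (2.87), KIF2C (3.46) and CENPE (3.51).

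**Figure D1:**
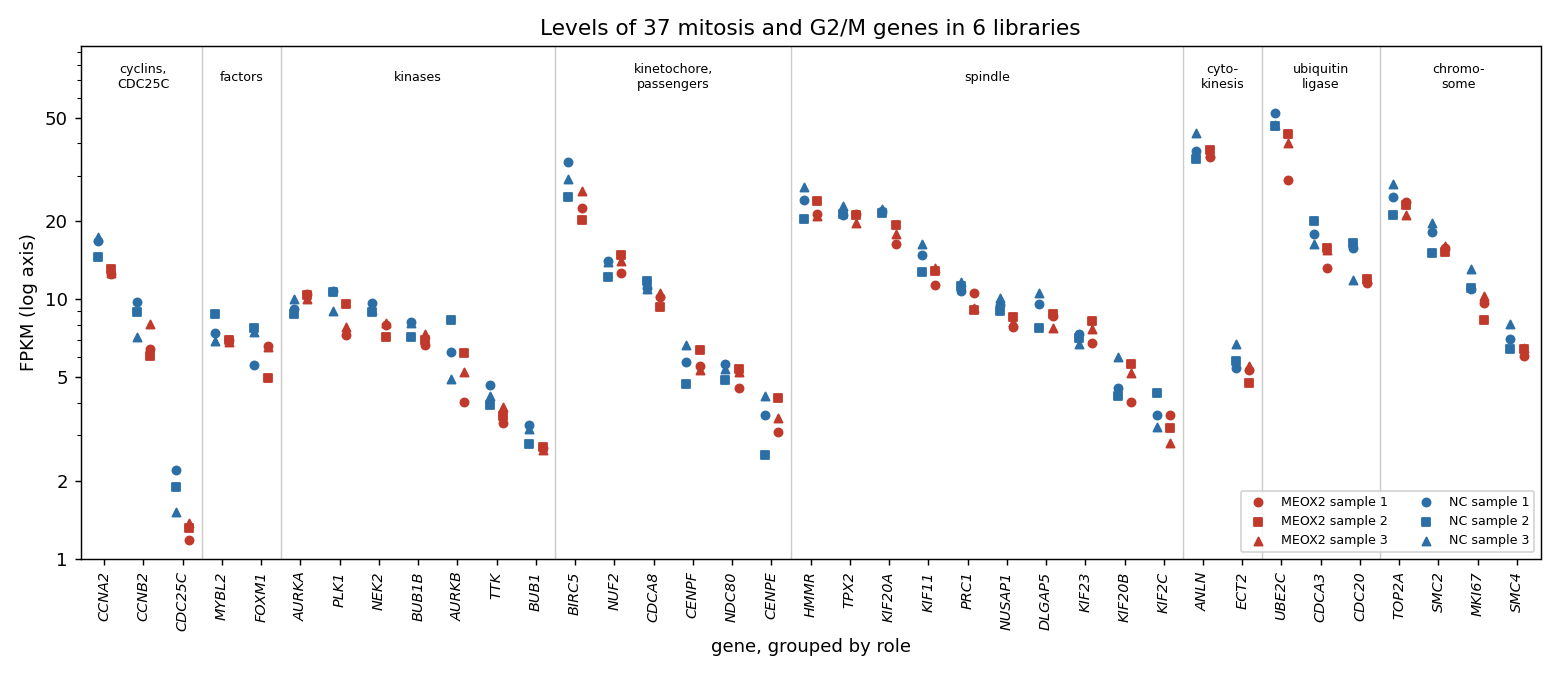
FPKM (log axis) of each of the 37 genes in the 3 NC libraries (blue) and the 3 MEOX2 libraries (red), grouped by role; marker shapes stand for the sample number. In 12 genes, CCNA2 and KIF20A among them, all red points lie below all blue points, and in most others the points of the groups mix.

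Among the cyclins and the CDK1 activator, all 3 measured genes had lower means with MEOX2, and 1 of them had an unadjusted p under 0.05. Over all genes tested, 50.7% of log2 changes were negative and 6.35% of genes were lower at that p. CCNA2 (ENSOARG00000014176, chromosome 6, 3657737 to 3663110, plus strand) encodes cyclin A2, which works with CDK2 in S phase and with CDK1 on the way into mitosis. It was measured at 12.6, 13.1 and 12.7 FPKM (MEOX2 samples 1, 2 and 3) and at 16.8, 14.5 and 17.4 FPKM (NC samples 1, 2 and 3), on 170 to 255 reads per library. The 3 MEOX2 libraries lay close together and below all NC libraries, and the log2 change was -0.32 (SE 0.093; limma adjusted p = 0.143), the smallest p among the 37. CCNB2, cyclin B2, the partner of CDK1 in mitosis, stood at 6.46, 6.04 and 8.05 FPKM with MEOX2 against 9.75, 8.94 and 7.17 FPKM in NC, where NC sample 3 lay below MEOX2 sample 3. Its log2 change was -0.29 (SE 0.14; limma adjusted p = 0.425).

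CDC25C, the phosphatase that removes the inhibitory phosphates from CDK1 (ENSOARG00000016166, chromosome 5, 47086156 to 47122393, minus strand), had the lowest mean level of the 37 and was measured at 1.18, 1.31 and 1.37 FPKM (MEOX2 samples 1, 2 and 3) and at 2.2, 1.88 and 1.52 FPKM (NC samples 1, 2 and 3). The groups did not overlap, and the mean was 31.0% lower with MEOX2, but only 28 to 55 reads per library support these values, and the log2 change of -0.32 (SE 0.15; limma adjusted p = 0.434) had a 95% interval -0.67 to 0.033 around it. Its log2 change was -0.49 with a pseudocount of 0.1 and -0.51 by limma voom on the recovered reads (unadjusted p = 0.0473, adjusted p = 0.341). CDK1 itself, listed as CDC2 (ENSOARG00000004318, chromosome 25, 16420009 to 16437119, plus strand), stood at 3.36, 3.28 and 4.19 FPKM with MEOX2 against 4.48, 3.07 and 4.39 FPKM in NC. The groups overlapped, NC sample 2 being the lowest of the 6 libraries, and the log2 change was -0.10 (SE 0.15; limma adjusted p = 0.854).

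Both transcription factors of the programme overlapped between groups. FOXM1, a forkhead factor that switches on G2/M genes, was at 6.63, 4.99 and 6.57 FPKM with MEOX2 against 5.59, 7.78 and 7.48 FPKM in NC, with the lowest value in MEOX2 sample 2 and the next lowest in NC sample 1. An unnamed protein-coding gene on the same strand, at a mean of 0.0243 FPKM, overlaps FOXM1 by 10199 bases, its whole span. Reads in that stretch cannot be told apart by strand. MYBL2, the MYB family member that joins the MuvB complex at these genes, was at 6.97, 6.96 and 6.82 FPKM with MEOX2 against 7.43, 8.75 and 6.91 FPKM in NC. The MYBL2 values with MEOX2 were nearly equal, and NC sample 3 lay within their range. Their log2 changes were -0.17 and -0.13, with limma adjusted p values of 0.717 and 0.689.

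Of the 7 mitotic and checkpoint kinases, 6 had a negative log2 change, 3 without overlap between groups (NEK2, TTK and BUB1). Among all genes tested, 50.7% had a negative change, and in 9.33% every MEOX2 library lay below every NC library. NEK2, a kinase that helps the centrosomes part (ENSOARG00000011466, chromosome 12, 69915816 to 69927483, plus strand), was measured at 7.99, 7.18 and 8.11 FPKM (MEOX2 samples 1, 2 and 3) and at 9.66, 8.91 and 9.08 FPKM (NC samples 1, 2 and 3). Its log2 change was -0.22 (SE 0.094; limma adjusted p = 0.341), and it was the only kinase of the 7 with an unadjusted p under 0.05. PLK1, the Polo kinase of mitotic entry and spindle assembly, was at 7.29, 9.63 and 7.86 FPKM with MEOX2 against 10.8, 10.7 and 9.05 FPKM in NC, with MEOX2 sample 2 above NC sample 3. Its log2 change was -0.27 (SE 0.12; limma adjusted p = 0.379). The spindle checkpoint kinases TTK, BUB1 and the pseudokinase BUB1B, which hold back anaphase until kinetochores are attached, had log2 changes of -0.20, -0.15 and -0.14, with limma adjusted p values of 0.522, 0.673 and 0.619.

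The Aurora kinases pointed in opposite directions, and neither passed the test. AURKA, which acts at centrosomes and spindle poles (ENSOARG00000018369, chromosome 13, 58840124 to 58858898, plus strand), was measured at 10.5, 10.4 and 10.05 FPKM (MEOX2 samples 1, 2 and 3) and at 9.16, 8.77 and 10.03 FPKM (NC samples 1, 2 and 3). It was the only one of the 37 genes with every MEOX2 library above every NC library, a pattern that 1259 of the 13121 genes tested showed. The margin was narrow for MEOX2 sample 3 against NC sample 3. The log2 change of AURKA was 0.14 (SE 0.091, limma adjusted p = 0.596), 95% interval -0.07 to 0.34. AURKB, the kinase of the chromosomal passenger complex at centromeres, was at 4.03, 6.24 and 5.23 FPKM with MEOX2 against 6.27, 8.3 and 4.94 FPKM in NC, on 94 to 208 reads per library. Its NC values spread more widely than the distance between the group means, and the log2 change was -0.27 (SE 0.19; limma adjusted p = 0.605), 95% interval -0.70 to 0.15. The difference between the changes of these genes was not tested.

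Kinetochore and chromosomal passenger genes split. Of 6, 3 had negative and 3 positive log2 changes, with a median of -0.0197, where 50.7% of all genes had a negative change. BIRC5, or survivin, a passenger protein that places AURKB at centromeres and also restrains cell death (ENSOARG00000005456, chromosome 11, 52928710 to 52934658, minus strand), was measured at 22.5, 20.2 and 26.1 FPKM (MEOX2 samples 1, 2 and 3) and at 33.8, 24.8 and 29.1 FPKM (NC samples 1, 2 and 3). MEOX2 sample 3 lay above NC sample 2, and the log2 change was -0.33 (SE 0.13; limma adjusted p = 0.3002). CDCA8, borealin, another passenger subunit, did not overlap between groups, at 10.2, 9.34 and 10.6 FPKM with MEOX2 against 11.03, 11.8 and 10.99 FPKM in NC, with a log2 change of -0.15 (SE 0.09; limma adjusted p = 0.545). NDC80 and NUF2, which pair in the complex that grips microtubule ends, stood at 5.06 ± 0.44 FPKM with MEOX2 against 5.3 ± 0.388 FPKM in NC (SD, n = 3 each) and at 13.8 ± 1.15 FPKM with MEOX2 against 13.4 ± 1.05 FPKM in NC (SD, n = 3 each), respectively. The large kinetochore proteins CENPE, a plus-end motor, and CENPF stood at 3.57 ± 0.547 FPKM with MEOX2 against 3.46 ± 0.876 FPKM in NC (SD, n = 3 each) and at 5.75 ± 0.532 FPKM with MEOX2 against 5.71 ± 0.977 FPKM in NC (SD, n = 3 each), and for both genes the 6 libraries mixed. The limma adjusted p values of NDC80, NUF2, CENPE and CENPF were 0.896, 0.909, 0.948 and 0.98.

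Of the 10 genes of spindle motors and microtubule proteins, 8 had negative log2 changes and 3 did not overlap between groups. The shares of all genes tested were 50.7% with a negative change and 9.33% with every MEOX2 library below every NC library. KIF20A, a kinesin of the central spindle needed for cytokinesis (ENSOARG00000015873, chromosome 5, 46994290 to 47001867, plus strand), was measured at 16.3, 19.4 and 17.8 FPKM (MEOX2 samples 1, 2 and 3) and at 21.9, 21.5 and 22.3 FPKM (NC samples 1, 2 and 3), on 499 to 740 reads per library. The NC libraries agreed closely, all MEOX2 libraries lay below them, and the log2 change was -0.28 (SE 0.088; limma adjusted p = 0.168). PRC1, which bundles microtubules at the spindle midzone, and NUSAP1, which binds microtubules around chromosomes, also did not overlap, with log2 changes of -0.20 (SE 0.094; limma adjusted p = 0.407) and -0.20 (SE 0.092; limma adjusted p = 0.399). PRC1 was at 9.64 ± 0.804 FPKM with MEOX2 against 11.2 ± 0.456 FPKM in NC (SD, n = 3 each), and NUSAP1 at 8.18 ± 0.35 FPKM with MEOX2 against 9.55 ± 0.555 FPKM in NC (SD, n = 3 each). NUSAP1 overlaps NDUFAF1 on the opposite strand by 1051 bases in the table. Whether reads were counted by strand is not stated, and reads in that stretch cannot be told apart. KIF11, the motor that pushes spindle poles apart, was at 11.4, 12.9 and 13.3 FPKM with MEOX2 against 14.9, 12.7 and 16.4 FPKM in NC, with NC sample 2 below MEOX2 samples 2 and 3.

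Other spindle genes lay closer together. TPX2, which activates AURKA on spindle microtubules, was at 21.4, 21.2 and 19.8 FPKM with MEOX2 against 21.2, 21.3 and 22.9 FPKM in NC, and its log2 change of -0.067 had the narrow 95% interval -0.25 to 0.11. HMMR and DLGAP5, spindle assembly proteins, and KIF2C, which takes microtubule ends apart, had log2 changes of -0.10, -0.13 and -0.17, all with overlap between groups. KIF23, a central spindle motor of cytokinesis, had a higher mean with MEOX2, at 6.8, 8.26 and 7.69 FPKM with MEOX2 against 7.38, 7.09 and 6.72 FPKM in NC, with a log2 change of 0.088 (SE 0.10; limma adjusted p = 0.804). KIF20B, a related kinesin, had nearly equal means, 4.95 ± 0.844 FPKM with MEOX2 against 4.95 ± 0.935 FPKM in NC (SD, n = 3 each), and MEOX2 sample 1 was the lowest library and NC sample 3 the highest.

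Both cytokinesis genes overlapped between groups. ANLN, anillin, the scaffold of the contractile ring, was at 35.6, 37.7 and 36.7 FPKM with MEOX2 against 37.5, 34.7 and 43.9 FPKM in NC, and its log2 change was -0.068 (SE 0.097; limma adjusted p = 0.846). ECT2, the exchange factor that switches on RhoA at the division plane, was at 5.34, 4.78 and 5.54 FPKM with MEOX2 against 5.44, 5.78 and 6.74 FPKM in NC, with a log2 change of -0.17 (SE 0.11; limma adjusted p = 0.611).

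The 3 factors of ubiquitin ligases each had an unadjusted limma p under 0.05, as did 6.35% of all genes on the lower side, and none was called. UBE2C, the ubiquitin-conjugating enzyme of the anaphase-promoting complex (ENSOARG00000006520, chromosome 13, 74125917 to 74129104, plus strand), was measured at 28.97, 43.6 and 40.1 FPKM (MEOX2 samples 1, 2 and 3) and at 52.3, 46.8 and 46.9 FPKM (NC samples 1, 2 and 3). MEOX2 sample 1 was far below the other 5 libraries, and all MEOX2 values lay below all NC values. Its log2 change was -0.38 (SE 0.14; limma adjusted p = 0.257). The unadjusted limma p went from 0.0239 to 0.0773 without NC sample 1 and to 0.057 without MEOX2 sample 1, where the log2 change was -0.21. CDC20, the activator of that complex at anaphase (ENSOARG00000020542, chromosome 1, 17815062 to 17818632, plus strand), was measured at 11.5, 11.99 and 11.97 FPKM (MEOX2 samples 1, 2 and 3) and at 15.8, 16.6 and 11.9 FPKM (NC samples 1, 2 and 3). NC sample 3 sat among the MEOX2 libraries while the other NC libraries lay well above, and the log2 change was -0.28 (SE 0.12; limma adjusted p = 0.356). Its unadjusted limma p was 0.079 to 0.155 with any single library other than NC sample 3 left out. Without NC sample 3 the log2 change of CDC20 was -0.42 and the limma adjusted p 0.0556, the smallest reached by any of the 37 under the alternatives run. CDCA3, a trigger of mitotic entry that works through ubiquitin ligases (ENSOARG00000005652, chromosome 3, 207550909 to 207552937, plus strand), was measured at 13.2, 15.8 and 15.4 FPKM (MEOX2 samples 1, 2 and 3) and at 17.9, 20.1 and 16.3 FPKM (NC samples 1, 2 and 3). The groups did not overlap, and the log2 change was -0.27 (SE 0.11; limma adjusted p = 0.299). The unadjusted limma p of CDCA3 was 0.121 without MEOX2 sample 1, 0.0688 without NC sample 1 and 0.109 without NC sample 2.

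All 4 genes of chromosome structure had lower means with MEOX2, where 50.7% of all genes had a negative log2 change. MKI67, the Ki-67 protein that coats mitotic chromosomes and is the common stain for dividing cells (ENSOARG00000014562, chromosome 22, 46439179 to 46468099, minus strand), was measured at 9.73, 8.32 and 10.3 FPKM (MEOX2 samples 1, 2 and 3) and at 10.95, 11.02 and 13.1 FPKM (NC samples 1, 2 and 3). The values rest on 1124 to 1760 reads per library, the groups did not overlap, and the log2 change was -0.28 (SE 0.11; limma adjusted p = 0.309). TOP2A, the topoisomerase that untangles sister chromatids, was at 23.7, 23.1 and 21.2 FPKM with MEOX2 against 24.9, 21.2 and 27.98 FPKM in NC, with NC sample 2 just below all 3 MEOX2 libraries and a log2 change of -0.11 (SE 0.11; limma adjusted p = 0.755). TOP2A overlaps RARA on the opposite strand by 3445 bases in the table, so its reads carry the same uncertainty as those of NUSAP1. PLK1, SMC4 and BUB1 overlap protein-coding genes on the opposite strand by 381, 922 and 1857 bases. Those overlapping genes had means of 0.243, 0.451 and 0.00195 FPKM. SMC2 and SMC4, the core pair of condensin, had log2 changes of -0.15 and -0.15, and for both genes NC sample 3 was the highest library.

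**Figure D2:**
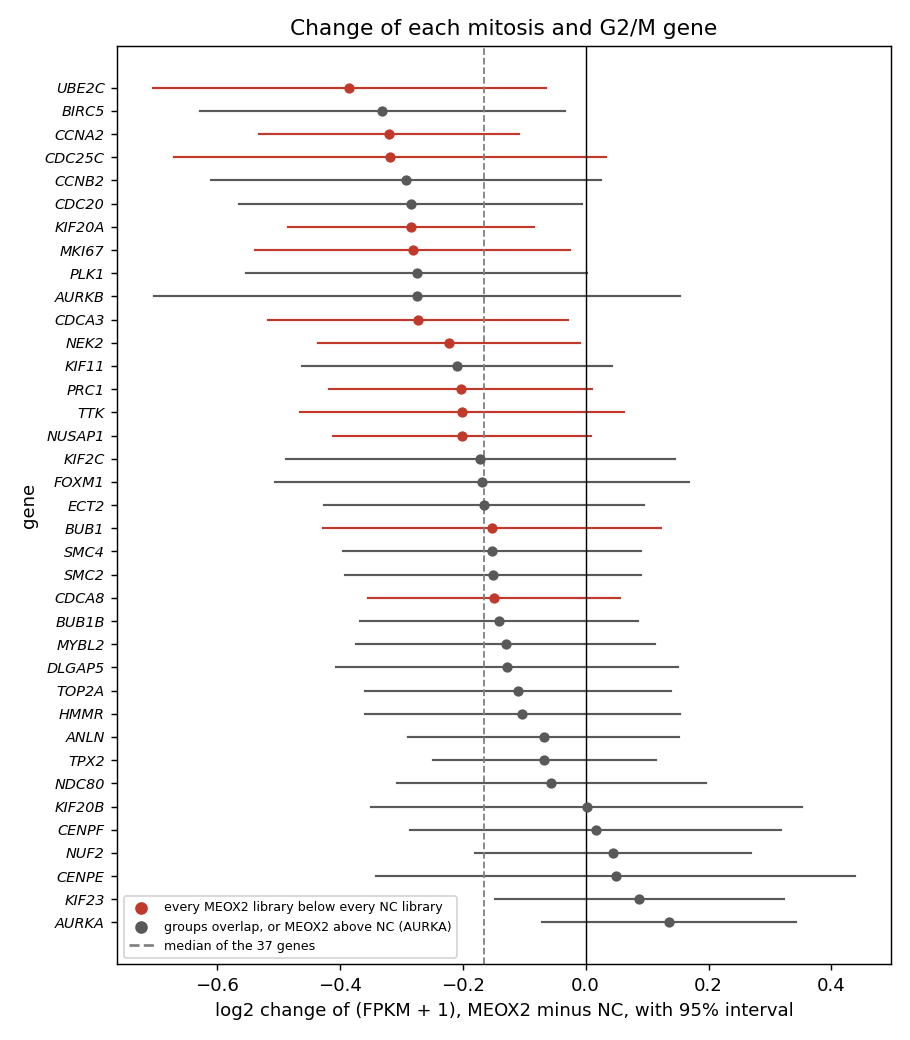
Log2 change of each of the 37 genes, MEOX2 minus NC on the log2(FPKM + 1) scale (x axis), as points with 95% intervals from the limma fit; red marks the 12 genes with every MEOX2 library below every NC library, and the dashed line the median of -0.17. The intervals of 8 genes leave out 0 before adjustment over all genes, all on the negative side, and AURKA lies at the other end at 0.14.

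The intervals show what sizes of change these 6 libraries leave possible on the log2(FPKM + 1) scale only. That scale shrinks the changes of low genes, so their bounds are too narrow for a change of FPKM itself. The log2 change of CDC25C went from -0.32 to -0.49 with a pseudocount of 0.1. On the log2(FPKM + 1) scale the lowest lower bound was -0.70, for UBE2C, and the highest upper bound 0.44, for CENPE. The median width of the intervals was 0.50 on the log2 scale, and the median SE of the 37 genes, 0.11, was close to that of all genes tested, 0.12. A p that missed the threshold does not show equal levels.

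Libraries of one group differed among themselves in these genes. The median deviation of the 37 from each gene's 6-library mean was -0.1001, -0.0504 and -0.0534 on the log2(FPKM + 1) scale (MEOX2 samples 1, 2 and 3) and 0.0909, 0.0036 and 0.14 (NC samples 1, 2 and 3). NC sample 2 thus lay near the middle, closer to the MEOX2 libraries than the other NC samples did. NC sample 3 was the highest of the 6 libraries for 17 of the 37 genes, and NC sample 2 the lowest for 9. MEOX2 sample 1 was the lowest for 15. The coefficient of variation was larger in NC than with MEOX2 for 26 of the 37 genes, with medians of 11.1% and 7.61%. Without NC sample 2, 35 of the 37 log2 changes were negative and the median was -0.20, and without NC sample 3 they were 30 and -0.13.

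**Figure D3:**
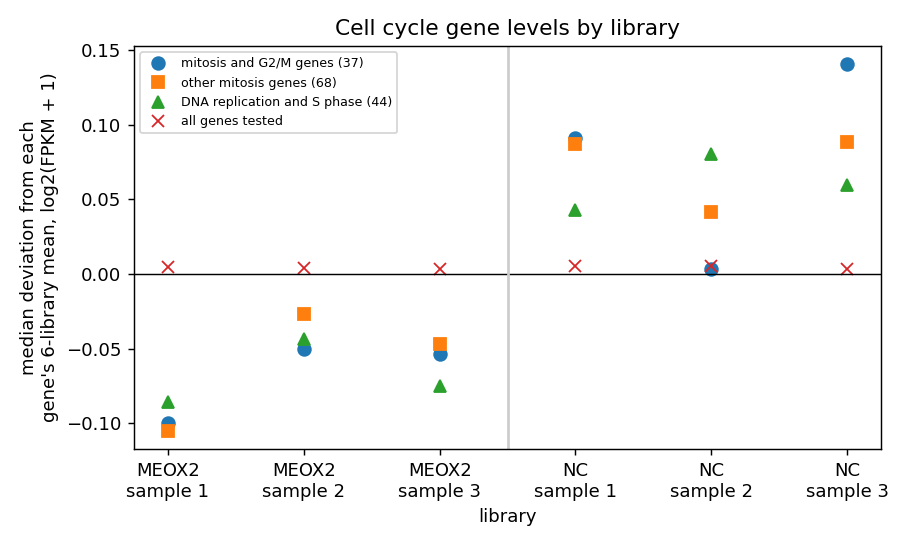
Median deviation from each gene's own 6-library mean on the log2(FPKM + 1) scale (y axis) in each library, for the 37 mitosis and G2/M genes, 68 other mitosis genes, 44 genes of DNA replication and S phase, and all genes tested. The MEOX2 libraries lie below 0 and the NC libraries above 0 for the 3 cell cycle lists, with NC sample 2 at 0.0036 for the 37 genes.

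The genes also sorted by length within these differences. Of the 18 shorter genes (429 to 2688 bases), 17 had a negative log2 change, with a median of -0.27, and 7 had an unadjusted p under 0.05. The 19 longer genes (2880 to 10857 bases) had 14 negative changes, a median of -0.14 and 1 such gene, MKI67. Among all genes tested, 50.7% of changes were negative and 6.35% of genes were lower at that p. Across the 37 genes the log2 change went with log2 gene length at a Pearson r of 0.49 and a Spearman rho of 0.51. Over all 13121 genes these were 0.0263 and -0.0116. The points share the same 6 libraries and are genes, not replicates. Gene length also went with differences inside the NC group: NC sample 3 exceeded NC sample 2 in 16 of the 19 longer and 10 of the 18 shorter genes, and the difference went with log2 length at an r of 0.36 among the 37 and 0.15 over all genes. With the length trend of each library removed, an alternative added after the data were seen, 31 of 37 changes were negative, the median was -0.16, and 0 of the 37 were called. That trend was fitted over all genes tested, where the log2 change hardly went with length. Its removal could therefore move the group changes of the 37 only slightly. The relation to length within the 37 was not recomputed afterwards.

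CENPE, CENPF and KIF20B, long genes with log2 changes near 0, were 0.58, 0.42 and 0.42 higher on the log2(FPKM + 1) scale in NC sample 3 than in NC sample 2. AURKB and CDC20 were the other extreme, with differences of -0.65 and -0.44. In AURKB this was larger than its log2 change between groups of -0.27. MYBL2 and KIF2C, though long, also stood lower in NC sample 3, by differences of -0.30 and -0.34.

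**Figure D4:**
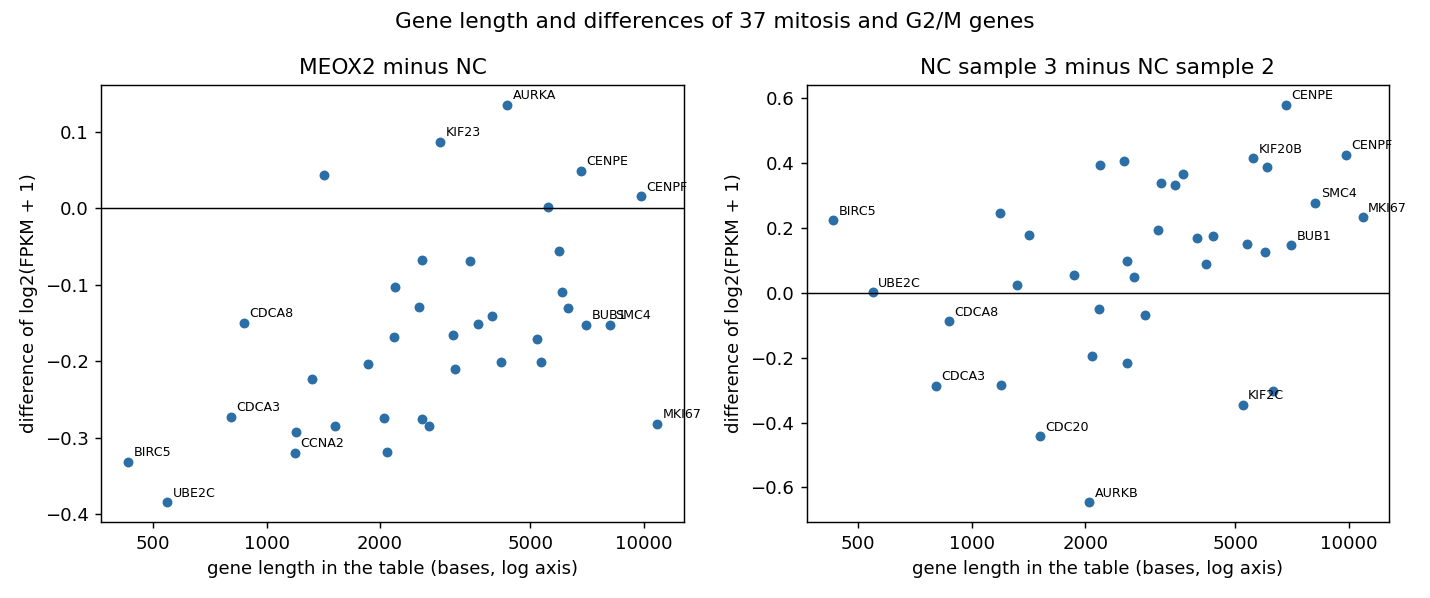
Gene length in the table (x axis, bases, log axis) against the difference of log2(FPKM + 1) (y axis) for the 37 genes, MEOX2 minus NC on the left and NC sample 3 minus NC sample 2 on the right; each point is a gene. On the left, the shortest genes BIRC5 and UBE2C lie lowest at -0.33 and -0.38, and on the right the values run from -0.65 for AURKB to 0.58 for CENPE.

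The 37 genes lie on 15 chromosomes, most often on chromosome 1 (6 genes) and chromosome 7 (5 genes). KIF20A and CDC25C are close together on chromosome 5, 84.3 kb apart in the table, with the protein-coding genes CDC23 and GFRA3 between them. Both had every MEOX2 library below every NC library, as did 9.33% of all genes tested, with log2 changes of -0.28 and -0.32. CDC25C rests on only 28 to 55 reads per library. Whether position had a part in these changes was not tested.

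Other genes of mitosis came from a list that shares no member with the 37. This list and the cell cycle lists below were also chosen with earlier results of these data known. Their genes were measured in the same 6 libraries, so they are no independent check on the 37. Of 68 tested, limma called 0 and 53 had a negative log2 change (77.9%, beside 50.7% of all genes tested), and the median was -0.15. At an unadjusted p under 0.05, 8 of the 68 were lower and 0 higher, where 6.35% of all genes were lower and 929 of 13121 higher. In 17 of the 68 every MEOX2 library lay below every NC library, as in 9.33% of all genes. Whether these genes and the 37 differ in their change was not tested. The smallest p values belonged to CIT, the citron kinase of the midbody, NCAPH, a condensin subunit, WEE1, the kinase that holds CDK1 inactive, and CDCA2, a chromatin-bound phosphatase partner. CIT was at 4.59, 3.999 and 4.44 FPKM with MEOX2 against 5.57, 5.64 and 5.5 FPKM in NC, with a log2 change of -0.30 (SE 0.10; limma adjusted p = 0.225); by limma voom on the recovered reads its adjusted p was 0.0479. NCAPH was at 5.12 ± 0.42 FPKM with MEOX2 against 6.53 ± 0.546 FPKM in NC (SD, n = 3 each). WEE1 stood at 8.13 ± 0.696 FPKM with MEOX2 against 9.95 ± 0.779 FPKM in NC (SD, n = 3 each) and CDCA2 at 3.69 ± 0.276 FPKM with MEOX2 against 4.71 ± 0.356 FPKM in NC (SD, n = 3 each), with log2 changes of -0.26 and -0.28 and limma adjusted p values of 0.293 and 0.306.

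Genes of DNA replication and S phase had a median of -0.13, with 40 of 44 log2 changes negative (90.9%, beside 50.7% of all genes tested). Limma called 0 of the 44, where 2.67% of all genes were called in either direction. At an unadjusted p under 0.05, 6 were lower and 0 higher, beside 6.35% of all genes lower and 929 of 13121 higher. PCNA, the sliding clamp of the replication fork, was at 77.9, 90.9 and 80.8 FPKM with MEOX2 against 99.4, 97.3 and 105 FPKM in NC, without overlap, and its log2 change was -0.27 (SE 0.082; limma adjusted p = 0.15). RRM2, a subunit of the enzyme that makes deoxynucleotides, was at 41.6 ± 0.516 FPKM with MEOX2 against 49.4 ± 4.17 FPKM in NC (SD, n = 3 each), with a log2 change of -0.24 (SE 0.082; limma adjusted p = 0.218). CCNE2, cyclin E2 of the G1/S step, and FEN1, the flap endonuclease, had log2 changes of -0.57 (SE 0.20; limma adjusted p = 0.224) and -0.33 (SE 0.12; limma adjusted p = 0.226). Whether the replication genes and the 37 differ in their change was not tested.

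Of 19 genes of the DREAM complex and the E2F factors, which hold back or switch on cell cycle genes, limma called 0, beside 2.67% of all genes. Negative log2 changes numbered 15 (78.9%, beside 50.7% of all genes tested), and the median was -0.0938. E2F8, a repressor of the family, was at 1.51, 1.48 and 1.48 FPKM with MEOX2 against 2.19, 2.32 and 2.4 FPKM in NC, a narrow range in each group without overlap. Its log2 change of -0.41 (SE 0.13; limma adjusted p = 0.19) passed without the intensity trend (adjusted p = 0.0483) and by limma voom (0.0424). E2F1, an activator, was at 2.15 ± 0.295 FPKM with MEOX2 against 2.99 ± 0.211 FPKM in NC (SD, n = 3 each), with a log2 change of -0.34 (SE 0.13; limma adjusted p = 0.286). E2F3 and NFYA, a subunit of the CCAAT-binding factor NF-Y, had log2 changes of -0.20 and 0.15, with limma adjusted p values of 0.585 and 0.551.

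Among 11 genes of the G1 cyclins and CDK inhibitors, 1 fell, 10 were not called, and the median was 0.0064. Limma called 1.16% of all genes tested as lower. CDKN2C, the p18 inhibitor of CDK4 and CDK6 (ENSOARG00000004421, chromosome 1, 25193886 to 25197806, plus strand), fell, from 64.3, 65.9 and 50.1 FPKM in NC to 35.0, 40.6 and 40.5 FPKM with MEOX2, a log2 change of -0.62 (SE 0.12; limma adjusted p = 0.0307). Its call was lost when any one library other than NC sample 3 was left out (limma adjusted p up to 0.133), without a filter on low genes (0.0878) and without the intensity trend (0.0631). CDKN1A, the p21 inhibitor, was at 431, 404 and 387 FPKM with MEOX2 against 344, 405 and 353 FPKM in NC, with overlap and a log2 change of 0.15 (SE 0.085; limma adjusted p = 0.512). CDK2 and CDK6, kinases of the G1 and S phases, had log2 changes of -0.20 and 0.28, with limma adjusted p values of 0.517 and 0.631.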

How the data were processed

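RNA sequencing of 6 sheep samples, 3 overexpressing MEOX2 and 3 labelled NC, was analysed from the single gene table that the authors deposited, in FPKM. Per the submitters' processing notes, the tools were HISAT2 2.0.5, featureCounts 1.5.0-p3, fastp, CASAVA 1.8 and DESeq2 1.20.0. Their roles, the genome build, the annotation and the strand setting are not stated in the sources. Times gene length, 100% of the deposited FPKM values above 0 were whole multiples of 1 step per library (tolerance 0.001 of a read), which gave the reads behind each value. Short or low genes rest on the fewest reads. The library sizes implied by the FPKM were 0.967 (MEOX2 sample 1) to 1.02 (MEOX2 sample 3) times the totals of these reads. These ratios ran close to the factors of a scaling by trimmed means, 0.963 to 1.02. The alternative with that scaling therefore stays near the main fit.

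Log2(FPKM + 1) was fitted for 13121 genes, those averaging 1 FPKM or more, with limma 3.58.1 in R 4.3.3 (eBayes with an intensity trend, no covariates), with Benjamini-Hochberg adjustment over all genes tested and a threshold of 0.05. On this scale the change of a low gene comes out too small. Values are means ± SD of FPKM, and intervals are 95% intervals of the log2 change. The fit was tested on simulated reads. The 40 symbols and the other lists were chosen with earlier results of these data known. Of the other lists, 3 symbols were matched by a former symbol, and CDK1 and PPARG through RefSeq synonyms (assembly ARS-UI_Ramb_v3.0). All members are accounted for; those with an unadjusted p under 0.05, and the highest and lowest by level, are given in every sample, and from each other cell cycle list the called genes and the 4 with the smallest p. The alternatives changed the pseudocount, the filter, the scaling or the variance model, added a replicate block, ran limma voom on the recovered reads, or left out each library. Other steps ran in Python 3.11.15 with scipy 1.17.1, pandas 2.3.3 and matplotlib 3.10.9.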

Additional observations from a re-analysis of the deposited data

How the results depend on the processing

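Under all 18 alternatives run, limma or limma voom called 0 of the 37 genes. With the filter at a mean of at least 5 FPKM, only 31 of the 37 were tested. Of those 31, 7 were lower at an unadjusted limma p under 0.05. The count lower at an unadjusted p under 0.05 was 7 to 10 in the alternatives that kept all libraries and 3 to 9 with single libraries left out: 3 without MEOX2 sample 1, 5 without MEOX2 sample 2 and 3 without NC sample 1. Only CCNA2 and KIF20A kept an unadjusted p under 0.05 in every alternative, at most 0.0336 and 0.0466 by limma or limma voom. The unadjusted p of NEK2, MKI67 and BIRC5 reached 0.138, 0.126 and 0.133. The count with every MEOX2 library below every NC library was 13 to 21 with single libraries left out, the highest without NC sample 2. With fewer libraries this is easier to reach. The share of all genes tested rose from 9.33% to between 12.6% and 16.5%, and was 16.0% without NC sample 2. Negative log2 changes numbered 30 to 35 of 37 with single libraries left out, and their median lay between -0.20 and -0.13. The 350 genes called over the whole table became 194 without a filter, 577 by limma voom and 112 to 280 with single libraries left out (112 without NC sample 1). In every fit with a library left out that changed a sign, the gene was not called: ANLN (-0.14 to 0.0244), CENPE (-0.11 to 0.18), CENPF (-0.0952 to 0.12), KIF20B (-0.0835 to 0.13), NDC80 (-0.11 to 0.0058) and NUF2 (-0.0175 to 0.11). With the replicate number as a block, 0 of the 37 and 242 genes in all were called and 7 of the 37 were lower at an unadjusted p under 0.05. The numbers were not taken as pairs in the main fit, because the labels do not say that they mark a shared batch or animal. Same-numbered libraries of the groups had correlations of -0.0747, 0.0204 and -0.0042 in their deviations across genes, for numbers 1, 2 and 3. With 3 libraries per group these values cannot settle whether the libraries were paired. Depth limits the low genes most: CDC25C, CCNB2 and AURKB had under 100 reads in at least 1 library.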
